A study of Drosophila melanogaster with 8 samples.

Results

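The transcripts described here are 103 of the 14755 FlyBase transcript targets on a fly expression array, which holds 26228 targets in all. They were chosen by their measured values, as targets at least 4-fold brighter in warmed fly heads than in control heads whose signal was still low after the rise. A target was kept when its probe was well above background on all 4 activated_31C arrays and its mean log2 signal was at least 2 higher there than on the 4 control_23C arrays. Every activated_31C array also had to read above every control_23C array, and the mean activated_31C level had to lie below 0. A level is the log2 processed signal minus the 75th percentile of the same array, so 0 is a signal brighter than 75% of the probes on that array. They are called low-signal risers below, after this rule. A low signal can come from a scarce transcript or from a probe that binds weakly, and these cannot be told apart here.

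All flies were w, elav-GAL4/+; UAS-dTrpA1/+ adults raised at 23 °C, so the control heads carried the driver and the channel as well. The elav driver is active in neurons, and dTrpA1 is a cation channel that opens with warmth, so that a move to a warm incubator depolarises neurons. The activated_31C flies spent 1 h at 31 °C and the control_23C flies stayed at 23 °C, with heads taken directly afterwards. Each group had 4 samples, each made of 20 heads with the sexes mixed, and the series calls the 4 samples of a condition independent. The study asked which transcripts respond to neural activity. No warmed flies without the channel were analysed here, so warmth and neural activity cannot be told apart. Each group also had a slide of its own, and an effect of the slide cannot be told apart from that of the treatment.

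In neurons, firing and calcium entry switch on a set of genes within minutes, among them genes of transcription factors that in turn act on later genes. Warming of a fly also switches on heat shock genes, which encode chaperones that keep other proteins folded. Many genes of either kind are close to silent at rest, so a large ratio can go with a small amount of RNA.

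Between 22668 and 23615 of the 32162 probes were well above background on an activated_31C array, and between 21785 and 24237 on a control_23C array. The lowest signal that counted as well above background was 31.2 to 46.9 intensity units on the activated_31C arrays. It was 60.3, 54.2, 47.3 and 23.2 units on control_23C replicates 1 to 4, so replicate 4 detected weaker spots than the other controls. None of the 103 low-signal risers could be paired with a gene symbol, and each is therefore named by its transcript identifier with no function given. The tissue label could not be checked either, because no gene on the marker lists for neurons, glia, photoreceptors, fat body or other tissues could be named among the targets tested.

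Of the 14755 FlyBase transcripts, 11625 were well above background on all activated_31C arrays, and 275 of these were at least 2 higher on the log2 scale. In 148 of the 275 the groups did not overlap, which is 1.27% of the detected transcripts. Of the 148, 103 stayed below the level of 0 and 45 reached it. The rule used this contrast, so no test is given for the risers and nothing is read from their number. In the other 127 large differences the groups overlapped, and in 114 of these control_23C replicates 3 and 4 both read more than 1 below replicates 1 and 2. The low-signal risers held 3 transcripts (2.91%) with that pattern in the controls, against 2.47% of all detected transcripts. The rule leaves out large differences in which this pattern makes the groups overlap, so nothing is read from these 2 shares.

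The 103 differences ran from 2.01 to 5.84 on the log2 scale, with a median of 2.66. That is 4.03-fold to 57.2-fold, with a median of 6.31-fold, while the median log2 difference over all detected transcripts was −0.025. Of the 103 differences, 39 were under 2.5, 30 were at least 3 and 8 were at least 4. Mean levels in activated_31C ran from −6.32 to −0.12 with a median of −3.77, against −9.11 to −2.35 in control_23C with a median of −6.69. As intensity, the medians of the 103 means were 365 units in activated_31C and 52.4 units in control_23C, where the 75th percentile of an array was 4616 to 5357 units. In activated_31C the typical riser was brighter than 31.2% of all FlyBase transcripts, and in control_23C brighter than 19.8%. Only 1 riser, FBtr0086275, passed the median activated_31C level of the detected transcripts, which was −0.26. In pools of whole heads, fewer cells with a transcript and less of it per cell cannot be told apart.

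**Figure D1:**
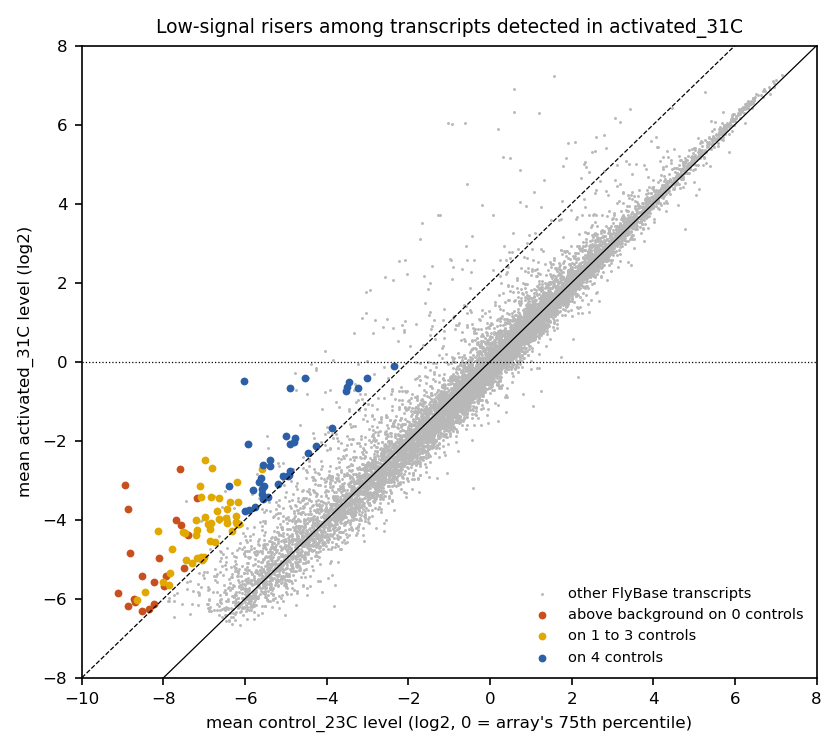
Mean level in activated_31C (vertical axis) against mean level in control_23C (horizontal axis), both in log2 units relative to the array's 75th percentile, for the 11625 detected FlyBase transcripts. The 103 low-signal risers are coloured by the number of control arrays on which they were well above background. The dashed line marks a difference of 2 and the dotted line a level of 0, and the mean control level of the risers without a detected control is −7.17 or lower.

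In control_23C, 21 of the 103 risers were below background on all 4 arrays, 45 were above it on 1 to 3 arrays and 37 on all 4. Below background here means that no spot of the probe was flagged as well above background. Such a signal can still be positive and significant by another flag. The median activated_31C level was −5.42 among the 21 and −2.63 among the 37, and the median differences were 3.01 and 2.57. Of the 412 control values, 220 were well above background, and 38 were not even a positive and significant signal by the scanner software's own flag. Replicate 4 detected the most risers, 77, against 44, 49 and 50 on control_23C replicates 1 to 3. Of the 27 risers above background on only 1 control array, 22 were so on replicate 4, 4 on replicate 1, 1 on replicate 2 and 0 on replicate 3. On replicate 4 these 22 had a median level of −6.85, and on replicates 1 to 3 their medians were −7.39, −7.19 and −7.09. With the rule applied again without control_23C replicate 4, 105 transcripts met it, 100 of them among the 103. Of these 105, 46 were below background in all remaining controls. Among the 103, the number without a positive and significant signal in any control was 4.

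Among the 21 risers below background in all controls, the largest difference was that of FBtr0100836. Its levels were −3.07, −3.03, −3.08 and −3.27 in activated_31C, against −8.44, −8.68, −8.89 and −9.79 in control_23C. The 4 activated pools lay close together and far above the controls, whose values fell below what the arrays could measure. The difference of 5.84 corresponds to 57.2-fold, but as a bound it is at least 13.9-fold. A bound here sets the mean of the activated arrays against a floor on each control array. That floor is the riser's own signal or the weakest signal that passed as well above background, whichever is higher. Signals above the weakest one did not all pass, so a bound is nominal and not a strict lower limit. On control_23C replicate 4, FBtr0112520 read −7.46 and did not pass, where the weakest passing signal was −7.73.

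FBtr0100837 was close behind, with −3.67, −3.74, −3.70 and −3.84 in activated_31C and −8.31, −8.60, −8.82 and −9.70 in control_23C, which is at least 9.0-fold. The 2 identifiers are consecutive. Both read lowest on control replicate 4, but so did 9 of the 21 in all. FBtr0074843 had nearly the same control values, at −8.33, −8.55, −8.74 and −9.67. How far such control values and their SDs reflect the floor of each array was not tested. FBtr0072949 read −2.21, −3.13, −2.66 and −2.83 in activated_31C, against −7.13, −7.71, −7.87 and −7.65 in control_23C. It varied more between activated pools than the previous pair did, and with at least 18.1-fold it had the highest bound of the 21.

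FBtr0112520 averaged −3.45 ± 0.11 in activated_31C and −7.17 ± 0.24 in control_23C (SD, n = 4 each), at least 10.5-fold. FBtr0088127 averaged −4.0 ± 0.09 in activated_31C and −7.70 ± 0.21 in control_23C, at least 7.50-fold. FBtr0075163 had the smallest spread over activated pools of all 103 risers, with levels of −4.16, −4.12, −4.09 and −4.13, against −7.50, −7.35, −7.75 and −7.64 in control_23C. Its bound was at least 6.77-fold, so in these 3 transcripts the bound too exceeded 4-fold.

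For dimmer transcripts the bound itself was lower. In brighter ones too it could lie well under the measured ratio, as for FBtr0100836 above. FBtr0074843 averaged −4.84 ± 0.18 in activated_31C and −8.82 ± 0.59 in control_23C, 15.8-fold as measured and at least 4.17-fold. FBtr0075446 averaged −5.86 ± 0.13 in activated_31C and −9.11 ± 0.61 in control_23C, 9.51-fold as measured but only at least 2.07-fold. Over the 21 transcripts the bounds ran from 1.5-fold to 18.1-fold with a median of 2.80-fold, against a median of 8.06-fold as measured. The bound reached 4-fold in 8 of the 21, and 6 had a bound under 2-fold.

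The 4 dimmest risers in activated_31C had the lowest bounds of the 21. FBtr0074568 had −6.43, −6.28, −6.31 and −6.26 in activated_31C, against −8.45, −8.26, −8.20 and −9.21 in control_23C. The groups are well apart, yet the measured 4.63-fold is only at least 1.5-fold. FBtr0085586 (at least 1.64-fold) and FBtr0082644 (at least 1.69-fold) were alike in this. FBtr0114510 had a bound of at least 1.58-fold, but its activated_31C replicate 1 read −6.65. That is under the lowest signal well above background on control_23C replicates 1 and 2, at −6.47 and −6.60. All 4 were well above background on every activated array and on no control array.

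**Figure D2:**
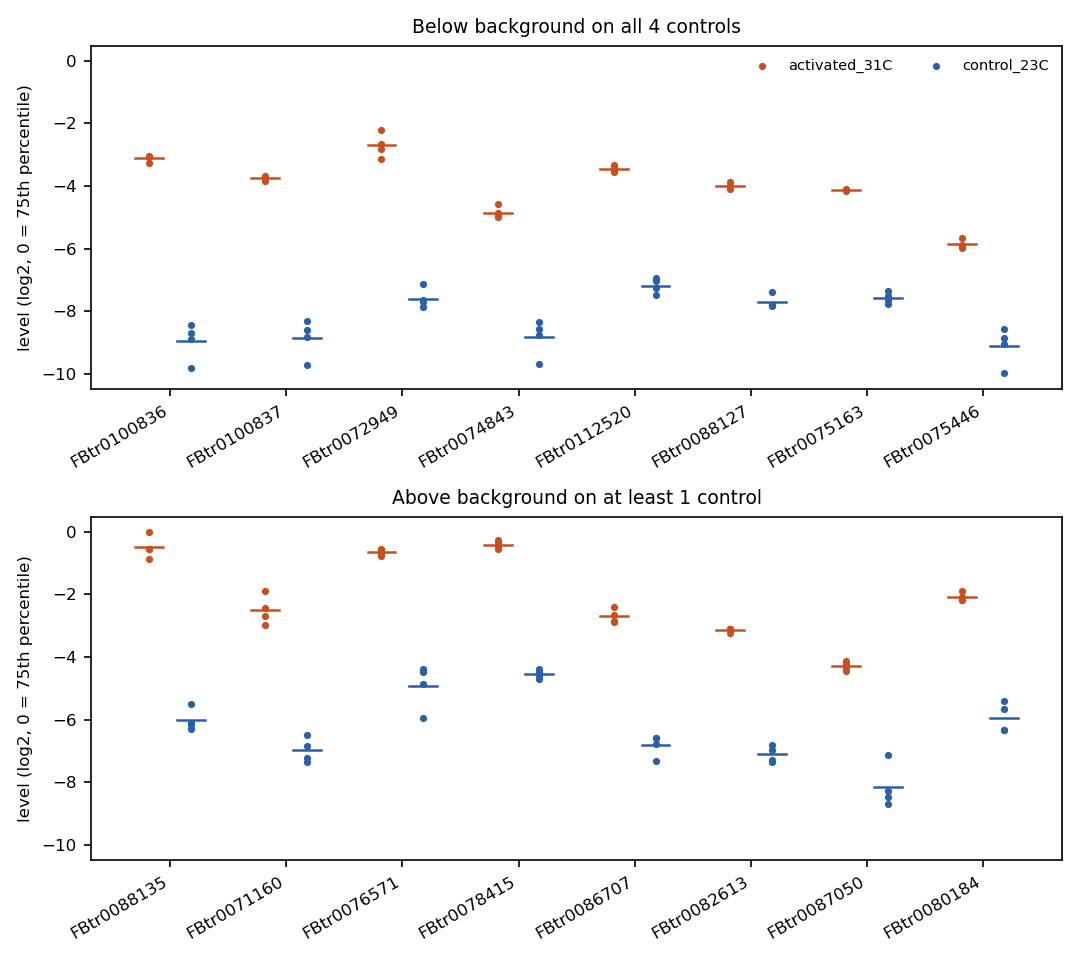
Level on each array (log2, 0 is the array's 75th percentile) of the 8 risers with the largest difference among those below background on all controls (upper panel) and the 8 among those above background on at least 1 control (lower panel). Points are arrays, 4 per group, with activated_31C left of control_23C, and bars are group means. No activated point overlaps a control point, and the controls of FBtr0100836, FBtr0100837, FBtr0074843 and FBtr0075446 reach below −9.

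Among the 82 risers above background on at least 1 control array, FBtr0088135 had the largest difference. It read −0.89, −0.02, −0.55 and −0.54 in activated_31C, against −6.30, −6.18, −6.10 and −5.51 in control_23C, and was well above background on all 8 arrays. The difference of 5.52, or 45.9-fold, was therefore measured on both sides. The lowest activated pool lay 4.62 above the highest control pool. FBtr0088135 is also among the 4 brightest risers.

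FBtr0076571 had −0.79, −0.59, −0.57 and −0.69 in activated_31C, against −5.93, −4.85, −4.47 and −4.39 in control_23C, a 19.1-fold difference. Its activated pools were tight, while control replicate 1 read lower than the other controls. FBtr0078415 had −0.27, −0.47, −0.35 and −0.57 in activated_31C, against −4.62, −4.71, −4.48 and −4.37 in control_23C, a 17.5-fold difference. Both groups of FBtr0078415 were tight, and like FBtr0088135 and FBtr0076571 it was detected on every control array. FBtr0080184, the other member of these 8 detected on every control, averaged −2.09 ± 0.13 in activated_31C and −5.93 ± 0.47 in control_23C (SD, n = 4 each), 14.3-fold.

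The remaining 4 of these 8 were above background on only 1 control array each. FBtr0071160 averaged −2.50 ± 0.46 in activated_31C and −6.97 ± 0.39 in control_23C, 22.2-fold as measured. FBtr0086707 averaged −2.70 ± 0.21 in activated_31C and −6.82 ± 0.34 in control_23C, 17.4-fold. These ratios rest in part on control signals that were not well above background. FBtr0082613 differed by 3.96 and FBtr0087050 by 3.85 on the log2 scale. In FBtr0087050, control replicate 1 stood at −7.11, above the other controls at −8.68, −8.26 and −8.46.

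The brightest riser, FBtr0086275, had −0.30, −0.01, −0.09 and −0.07 in activated_31C, against −2.14, −2.41, −2.36 and −2.47 in control_23C. FBtr0080264 had −0.46, −0.41, −0.36 and −0.43 in activated_31C, against −3.13, −3.03, −2.98 and −2.93 in control_23C. Both groups were tight in these bright transcripts, and their differences of 2.23 and 2.60 were below the median of the 103. FBtr0078134 had as little spread in activated_31C, at −0.52 ± 0.04, but a wide one in control_23C, at −3.45 ± 0.75 (SD, n = 4 each).

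**Figure D3:**
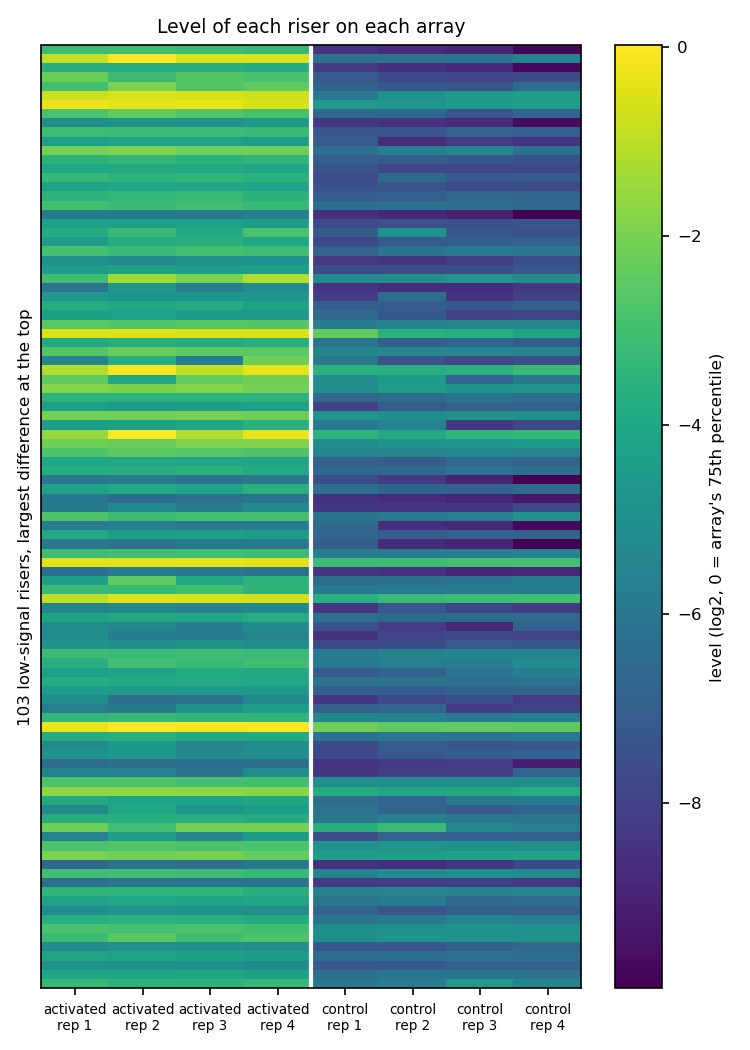
Level of each of the 103 low-signal risers (horizontal bands, largest difference at the top) on each array (4 activated_31C arrays left of 4 control_23C arrays), as log2 signal relative to the array's 75th percentile. Levels in activated_31C average −6.32 to −0.12 and levels in control_23C −9.11 to −2.35, and the bright bands are not gathered at the top.

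When every value not well above background was raised to the lowest signal well above background on its array, the median difference of the 103 was 2.36 and 78 stayed at least 4-fold. This setting was chosen after seeing the data. Of the 25 that then fell short of 4-fold, 13 were below background in all controls. The groups still did not overlap in 102 of the 103, all but FBtr0114510, and the smallest difference was 0.59. The 37 risers detected on all 4 controls are unaffected by this step. With normexp background correction, which here started from median spot signals in place of the processed signal and added an offset of 50 units, all 103 were still higher in activated_31C, the smallest by 0.42. Only 77 were higher by at least 1 on the log2 scale, the groups did not overlap in 76, and 27 transcripts met the rule, 26 of them the same. The parts of the correction, the starting signal and the offset in this were not tested apart.

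**Figure D4:**
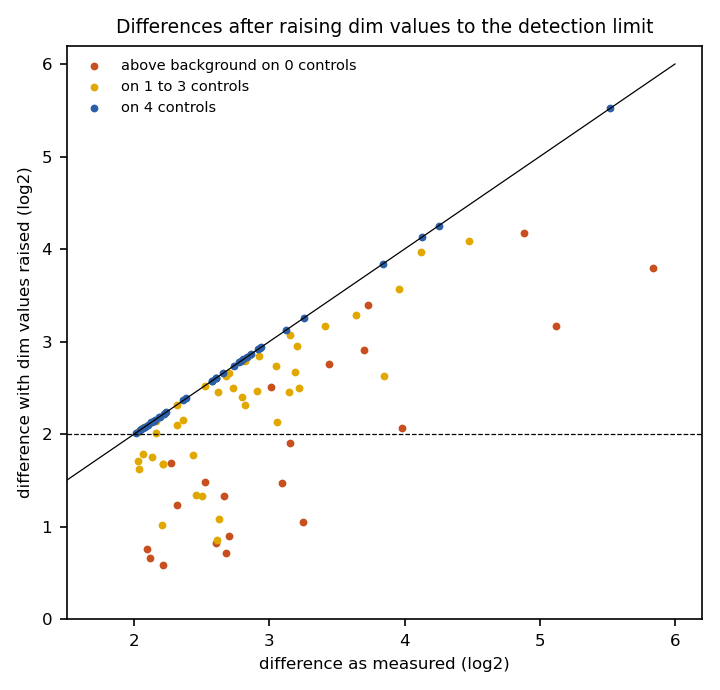
Difference between activated_31C and control_23C (log2) for the 103 low-signal risers, as measured (horizontal axis) and with dim values raised (vertical axis). Dim values were raised to the lowest signal well above background on their array. Colours give the number of controls well above background, the solid line marks equality and the dashed line a difference of 2. The risers detected on 4 controls lie on the line, and 25 risers, 13 of them without a detected control, drop below 2.

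The limits of the rule cut through a continuous range. Just inside the limit on the difference lay FBtr0074373, FBtr0071635 and FBtr0086282, with differences of 2.01, 2.03 and 2.03. Just outside it lay FBtr0299803, FBtr0082781 and FBtr0074818, with 1.94, 1.94 and 1.93. At the limit on the level, FBtr0086275, FBtr0080264 and FBtr0078415 lay inside with mean activated_31C levels of −0.12, −0.41 and −0.41. FBtr0073456, FBtr0082026 and FBtr0081969 lay outside with 0.02, 0.41 and 0.66.

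The spread between pools was wider in the controls than in the activated pools for the typical riser. The median SD of a riser was 0.14 over the activated_31C arrays and 0.28 over the control_23C arrays, against 0.10 and 0.096 over all detected transcripts. These are SDs of log2 signals, and dim signals carry more relative error, whose part in this difference was not tested. On arrays with 2 spots for a riser (56 of the 103), the spots differed by a median of 0.077 in activated_31C and 0.15 in control_23C. The widest riser in activated_31C was FBtr0082625, with −5.43, −3.67, −5.78 and −2.20, against −5.95, −7.40, −7.80 and −7.56 in control_23C. Its activated pools spanned most of the range between the groups, and the lowest of them lay 0.17 above the highest control, the narrowest gap of the 103.

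FBtr0082631 read −3.05, −1.38, −1.94 and −1.13 in activated_31C, against −5.14, −5.03, −4.76 and −5.05 in control_23C. Its controls were tight, at an SD of 0.16, while the SD over its activated pools was 0.85 (n = 4 each). FBtr0088656, with an activated_31C SD of 0.84, went another way and read lowest in replicate 2, at −3.97. Its control_23C levels were −5.02, −4.53, −6.83 and −5.96, so replicates 3 and 4 read below replicates 1 and 2. The lowest activated pool of FBtr0088656 lay 0.56 above its highest control. Altogether 15 risers (14.6%) had an activated_31C SD over 0.4, a limit chosen after seeing the data, against 8.32% of the detected transcripts.

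In 10 of the 15, activated_31C replicates 2 and 4 were the highest pools. Among all 967 detected transcripts with so wide a spread, replicates 2 and 4 were highest in 29.1%. The 10 were FBtr0071160, FBtr0073069, FBtr0082631, FBtr0088364, FBtr0082625, FBtr0082025, FBtr0077390, FBtr0078831, FBtr0114504 and FBtr0273238. In FBtr0077390 the activated pools read −1.55, 0.02, −1.12 and −0.28, against −3.48, −3.93, −3.41 and −3.28 in control_23C. FBtr0082025 read −1.15, −0.13, −0.94 and −0.30 in activated_31C, against −3.59, −3.69, −3.57 and −3.15 in control_23C. These 10 are grouped by having replicates 2 and 4 highest, and the order of the pools otherwise differed among them. What set replicates 2 and 4 apart was not tested, and replicates of a condition have no order of their own.

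**Figure D5:**
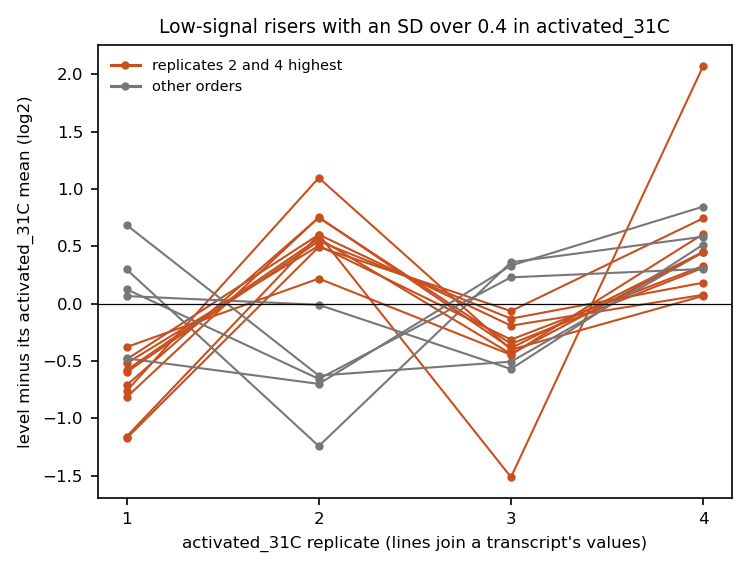
Level on each activated_31C array minus the transcript's activated_31C mean (log2) for the 15 low-signal risers with an SD over 0.4. Points are arrays and lines join the values of a transcript. In 10 transcripts replicates 2 and 4 are the highest, and the largest excursion is that of FBtr0082625.

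A further probe on the array gave a second reading for 24 of the 103. In 15 cases it was well above background on all activated_31C arrays, and there the groups did not overlap and the differences ran from 1.68 to 4.22 with a median of 2.87. In 14 of the 15 the difference was at least 2. A probe enters this count through its signal in activated_31C, the brighter group, so the count is a description and lends no support to the differences. For FBtr0112520 the probes gave 3.73 and 3.67, for FBtr0080184 3.84 and 4.22, and for FBtr0082613 3.96 and 3.93. For FBtr0087050 they lay further apart, with 3.85 for the probe used and 2.45 for the other. These readings come from the same RNA, so they bear on the probe and not on the replicates. In the other 9 cases the further probe was not detected on all activated_31C arrays. The 9 differences ran from −0.037 to 2.00 with a median of 0.064, 5 of them lay within 0.1 of 0, and the groups overlapped in 7. For FBtr0100836 it was detected on 0 of them, with a level of −7.73 and a difference of 1.30, against 5.84 for the probe used.

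The rule set no condition on the identifiers, which number transcripts in FlyBase. Consecutive numbers occurred in 6 pairs of risers, and whether the members of a pair belong to the same gene or share probe sequence is not given in the sources used here. FBtr0085568 and FBtr0085569 differed between groups by 2.32 and 2.46, and FBtr0075415 and FBtr0075416 by 2.70 and 2.57. The differences of FBtr0084438 and FBtr0084439 were 2.92 and 3.01, and those of FBtr0076570 and FBtr0076571 lay further apart, at 2.57 and 4.25. The remaining pairs were FBtr0075163 with FBtr0075164 and FBtr0100836 with FBtr0100837. Such pairs may not be separate differences.

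Numbers next to a riser were also carried by 99 detected transcripts outside the 103, and 13 of these (13.1%) were at least 1 higher in activated_31C, against 5.90% of all detected transcripts. Among the 13, the groups overlapped in FBtr0075602, FBtr0077523 and FBtr0087479. In FBtr0075602 and FBtr0077523, control_23C replicates 3 and 4 read far below replicates 1 and 2. Neither share sets a condition on overlap. The median difference of the 99 was −0.051. FBtr0071159, next to FBtr0071160, was a bright transcript at 5.54 in activated_31C and 1.91 in control_23C. FBtr0077391, next to FBtr0077390, stood at 4.11 in activated_31C and 2.29 in control_23C. Of the 11 detected neighbours of the 10 wide risers listed above, 4 were at least 1 higher, and in each of the 4 the highest activated pool was replicate 2. Replicates 2 and 4 were both highest in only 1 of the 4, FBtr0114505, and replicate 4 was the lowest activated pool in 2 of them, FBtr0077391 and FBtr0082026. Those neighbours were FBtr0071159, FBtr0077391, FBtr0082026 and FBtr0114505, chosen after their values were seen.

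For context, 24 lists with 352 genes were looked up, of which 11 could be named among the 17821 targets tested. The lists covered heat and activity responses and also other subjects, such as metabolism, ion channels and tissue markers. None of the 11 is a FlyBase transcript target, so none could meet the rule. By limma with Benjamini-Hochberg adjustment, 8 of the 11 were higher, 1 was lower and 2 did not pass, where 19.6% of all targets were higher and 24.7% lower at an adjusted p under 0.05. The share of higher targets among those called was 44.3%, against 66.2% after median centring, 30.3% after spike-in centring and 34.1% after quantile normalization. Spike-in centring moved the median difference of all detected transcripts to −0.15, and the 103 risers stayed higher by at least 1.89.

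On the heat-inducible list, 3 of the 27 entries could be tested, and all 3 were higher. Log2 differences were 3.43 for CG7130, 1.69 for mbf1, a transcriptional coactivator, and 0.77 for lncRNA:Hsromega, a nuclear RNA of the heat shock response. CrebA, a transcription factor on the list of activity-regulated candidates, read −1.27, −1.38, −1.40 and −1.39 in activated_31C, against −1.69, −1.63, −1.76 and −2.05 in control_23C (limma adjusted p = 0.00745). The groups did not overlap, and the difference of 0.42 was small beside those of the risers. On the metabolic list, Pdk (pyruvate dehydrogenase kinase) was higher by 1.44 and Ald1 (an aldolase of glycolysis) by 0.68. The differences of chrb, a stress-induced inhibitor of growth signalling, at 0.24, and Sod1, superoxide dismutase, at 0.22 were small, and that of Sod1 turned to −0.019 after quantile normalization. For chrb, quantile normalization gave 0.068 and spike-in centring 0.12. On the list of ion channels and synapse genes, the potassium channel gene Sh was lower, by −0.16 (limma adjusted p = 0.0397), and its difference was −0.078 after median centring and −0.28 after spike-in centring. The list genes past the threshold, 9 of 11, numbered 7 with quantile normalization, 6 with median centring and 5 with spike-in centring. The potassium channel gene slo (difference −0.097, limma adjusted p = 0.218) and the glutamate receptor subunit gene Nmdar2 (−0.0058, limma adjusted p = 0.955) did not pass.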

How the data were processed

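Heads were profiled on 8 one-colour Agilent arrays, 4 per group, grouped by the sample titles. The authors' scanner files hold spot intensity values. Per the file headers they were extracted with Agilent Feature Extraction 10.7.3.1, and version 9.1.3.1 stands in the submitters' processing notes. That software subtracts background, and its flags mark spots well above background, per the file headers. The array design carries the build dm3. A value table on a log2 scale, deposited by the authors, was used only as an alternative. Its values correlated at 0.983 to 0.993 per array with the scanner values taken as deviations from each probe's median over arrays. Its column medians ran from −0.062 to 0.038, so its direction and centring follow from these values. A correlation does not set the scale, but the median difference of the risers was 2.66 in this table and in the scanner values.

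From these files, control spots and 559 outlier-flagged spots were left out, and the log2 of the processed signal was averaged over a probe's spots. Each array's 75th percentile was then subtracted. A target took its probe with the highest mean. A probe counted as well above background on an array when every spot of it was. The exception is the count of controls on which a riser was detected, where 1 spot was enough. Names came from a RefSeq gene table (Release 6 plus ISO1 MT), which gave 359 targets 1 symbol, 23 several and the others none. Of the FlyBase transcripts 13 were named. No sequences are printed.

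The members and gene lists were chosen with earlier results of these data known, and the low-signal risers are described with no test. The 17821 targets detected on every array of either group or both were tested with limma 3.58.1 in R 4.3.3 (lmFit, eBayes, group as the only term, two-sided). On simulated data with 17821 targets in the comparison of activated_31C with control_23C, 70.1% of 67 targets changed 1.5-fold, 89.6% of 67 changed 2-fold and 100% of 66 changed 4-fold were called, with 7 false calls. The simulated noise was independent between targets, and targets with the widest spread were not among those changed. Deviations shared between targets and an effect of the slide were not simulated, so these shares and false calls need not hold for the real arrays. Transcripts named in the text are those with the 8 largest differences with and without a detected control, the 4 brightest and dimmest, the 3 with the largest and smallest activated_31C SD and the 3 on either side of each limit. Others were named after their values were seen, as were the further probes and identifier neighbours. Up to 3 genes per list are named. Precision is limited by 4 arrays per group. No pair of arrays held identical values, saturated spots numbered 0 on every activated_31C array and 5 to 15 per control_23C array. Same-numbered replicates did not deviate together in every case (correlations of 0.18, 0.11, 0.68 and −0.35 over 11625 transcripts), so the numbers were not taken to pair samples. Deviations were also shared across numbers. For activated_31C replicate 3 the correlations with control_23C replicates 1 to 4 were −0.69, −0.54, 0.68 and 0.50. For activated_31C replicate 4 they were 0.47, 0.52, −0.56 and −0.35. The source of these shared deviations was not tested. Alternatives were other scalings, normexp background correction of the median spot and background signals with an offset of 50, filters, probe choice, limits, the authors' table and each array left out.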

Additional observations from a re-analysis of the deposited data

Results flagged for a closer look

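In 5 of 92 groups of 4 arrays, over the transcripts and genes named by rule, 1 array lay far from the other 3. Chance would give about 1 in 20, or 4.6 of 92. The measure is the gap to the nearest array as a share of the group's whole range. It was 0.878 for FBtr0088127, where control_23C replicate 1 was highest at −7.39, a value not well above background. It was 0.844 for FBtr0088656, where activated_31C replicate 2 was lowest at −3.97. For FBtr0082026, a transcript just above the level limit and so outside the 103, it was 0.857, with activated_31C replicate 2 highest at 0.75. For CrebA it was 0.869, with activated_31C replicate 1 highest at −1.27. For slo it was 0.849, with activated_31C replicate 2 highest at −0.91.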

How the results depend on the processing

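The number of low-signal risers stayed within 1.5 times of 103 under 20 of 23 alternatives, with 27 after normexp correction (from median spot signals, offset 50) and 166 and 64 with limits of 1.5 and 2.5 on the log2 difference. Leaving out each array in turn gave 99 to 131. The count below background in all controls (21) was 3 after normexp and 4 by the positive-and-significant flag. It ran from 20 to 46 as each array was left out, with 46 without control_23C replicate 4, and was 51 leaving out control_23C replicates 3 and 4 and 59 leaving out activated_31C replicate 3 as well. These last 2 settings were added after seeing the data. The median difference (2.66) was 1.48 after normexp, 2.16 and 2.93 with the limits of 1.5 and 2.5, and 2.36 with dim values raised, and the other 18 alternatives moved it by less than the median spread between replicates. Of the limma counts, median centring gave 2100 higher and 1071 lower targets, and spike-in centring 1620 higher targets and 5 list genes past the threshold in place of 9. The cause of these shifts was not tested. With the replicate block, 3150 targets were higher, 3938 lower and 9 list genes past the threshold, so the block moved none of these counts by over 1.5 times. The dimmest risers are limited by signal over background in control_23C.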
